A study of Rattus norvegicus with 9 samples.

Results

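Interferon response genes and the genes of MHC class I antigen presentation were followed in rat liver across 3 groups of arrays. The list held 39 gene symbols, of which Ddx58 and Rigi name the same gene. Every probe set that the platform annotation assigned to exactly 1 gene, a listed one, was taken. In all, 30 of the 39 listed had such a probe set, which gave 44 probe sets of the 15923 on the array, where 10411 genes in all had a probe set of their own. Ifih1, Ddx58, Rigi, Isg15, Ifit2 and Cxcl11 matched no probe set, and RT1-A1, RT1-A2 and Igtp were found only on probe sets shared with other genes.

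Total RNA of whole liver was measured on 9 one-colour arrays, 3 for each of the groups named Burn-CLP, Sham-CLP and Sham-Sham. The labels call Sham-Sham the control and spell out neither the procedures nor their timing, the strain, the sex or the age of the rats. In rat models of injury, CLP is the usual abbreviation of cecal ligation and puncture, an operation that causes abdominal sepsis. Whether each array stands for an animal of its own is not stated. The p-values set differences between groups against the spread of these samples within groups, and that spread could be technical.

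Interferons are secreted proteins that bind receptors on the cell surface and act through STAT and IRF transcription factors. These bind short DNA elements, the interferon stimulated response element (ISRE) and the gamma activated site (GAS), and switch on antiviral effectors, chemokines and the machinery of class I presentation. Class I molecules, made of a heavy chain and beta-2 microglobulin, display peptides that the TAP transporter brings into the endoplasmic reticulum, and nearly all nucleated cells carry them. In liver, hepatocytes, Kupffer cells, endothelium and resident lymphocytes all respond to interferons.

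Promoter sequences from RefSeq (build GRCr8), each a window of 300 bases that starts 250 bases before the gene's start, were matched for 25 of the 30 genes. Irf2, Mx2, Ifit1, Usp18 and Adar had no entry. An ISRE core, spelled TTTC, any 2 bases and TTTC again and searched on both strands, stood in the window of 14 of the 25 genes (56%), against 3.92% of all 33469 promoters. The GAS, spelled TTCNNNGAA and its own reverse complement, stood in 7 of the 25 (28%), against 8.87% of all promoters. A match is a description of these letters and not a binding site. The windows below, with the matching bases in capitals, were picked from genes with a match whose levels are given array by array. Among them the ISRE core recurs in a transcription factor, antiviral effectors, a chemokine and class I genes.
Irf7, chr1:205800068-205800107, minus strand, ISRE core 69 bases before the start: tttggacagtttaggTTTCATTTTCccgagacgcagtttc
Ifit3, chr1:241527267-241527306, plus strand, ISRE core 44 bases before the start: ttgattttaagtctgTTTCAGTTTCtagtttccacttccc
Gbp2, chr2:234005681-234005720, plus strand, ISRE core 31 bases before the start: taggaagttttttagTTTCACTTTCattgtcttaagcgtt
Cxcl10, chr14:15988816-15988847, plus strand, ISRE core 243 bases before the start: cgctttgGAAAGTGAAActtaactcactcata
Tap1, chr20:4668640-4668679, minus strand, ISRE core 121 bases before the start: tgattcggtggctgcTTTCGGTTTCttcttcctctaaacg
B2m, chr3:129549165-129549204, plus strand, ISRE core 150 bases before the start: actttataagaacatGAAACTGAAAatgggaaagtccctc
Irf9, chr15:33065722-33065760, plus strand, GAS 99 bases before the start: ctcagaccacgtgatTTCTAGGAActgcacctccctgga

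The promoter windows of Ifnar1, Ifngr1, Irf3, Stat2, Mx1 and RT1-CE5 held neither spelling. The same was true of Rnf213, the gene with the largest change among the listed ones. The Rnf213 window is shown whole, and so has no capitals.
Rnf213, chr10:105154735-105155034, plus strand: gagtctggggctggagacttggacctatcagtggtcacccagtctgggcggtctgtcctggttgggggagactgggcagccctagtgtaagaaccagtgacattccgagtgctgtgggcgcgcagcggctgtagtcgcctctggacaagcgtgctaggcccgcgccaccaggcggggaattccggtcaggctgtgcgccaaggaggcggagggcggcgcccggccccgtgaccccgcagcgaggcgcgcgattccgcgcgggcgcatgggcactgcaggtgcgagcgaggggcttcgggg

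Values are given as normalized signal, the deposited intensity after quantile normalization across the 9 arrays. Signals under 64.3, the 20th percentile of all values, were set to that floor, where they have no order. Testing required 3 or more of the 9 arrays above the floor, which kept 38 of the 44 probe sets and 28 genes. The other 6 were both probe sets of Irf2, the only one of Oas1b and 3 of the 5 of RT1-CE5. Because probe sets that are at the floor nearly everywhere could not enter, the 38 do not stand for all listed genes. Differences are log2 changes ± SE from limma, fitted to all 9 arrays together, and a probe set was called at a Benjamini-Hochberg adjusted p under 0.05 over all 13535 probe sets tested. Different probe sets of a gene were kept apart, and a signal is never set against that of another probe set.

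The arrays differed before normalization. Deposited medians ran from 89.9% to 117.55% of their mean, with the highest in Sham-Sham 1, and Sham-Sham 1 also had the lowest mean correlation with the other arrays (0.890, against 0.922 to 0.949). Without Sham-Sham 1 the median change of the 38 probe sets between Burn-CLP and Sham-Sham was -0.24 instead of -0.33, and the number that were lower stayed at 26. The tissue label was checked against 6 hepatocyte markers, led by Alb and Serpina1, whose summed signal was 171198 to 179997 in Burn-CLP, 169405 to 181793 in Sham-CLP and 159899 to 169500 in Sham-Sham livers.

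The first comparison, of Burn-CLP with Sham-Sham livers, asks how the combined injury differs from the control. Most of the listed genes had lower signals in Burn-CLP livers, but only Rnf213 and RT1-CE5 passed the test, each at 1 of its probe sets, and RT1-CE5 met the filter on low signals mainly through the Sham-Sham arrays. In all, 26 of 38 probe sets were lower and 12 were higher, with a median change of -0.33 and a range of -2.27 to 0.93. Over all 13535 probe sets the median was 0.01 and 49.2% were lower. The 2 called probe sets were both lower, where 0.746% of all probe sets were called and 0.421% of all were called as lower. At an unadjusted p under 0.05, 11 were lower and 2 higher, against 9.85% and 10% of all probe sets. The 3 Burn-CLP arrays all lay below the 3 Sham-Sham arrays at 13 of the 38 and all above them at 1, where 10.5% and 11% of all probe sets did so. The 1 above was Ifnar1 at 1398523_a_at, which met the filter through Burn-CLP and so had to be higher. Tap1 at 1388149_at and RT1-CE5 at 1371210_s_at were at the floor on all Burn-CLP arrays and so could only be lower. Both are among the 11 and the 13. Without Sham-Sham 3, 645 probe sets were called over the whole array, and without Burn-CLP 1 only 19, against 101 with all arrays. The sign of each of the 38 changes was the same under the deposited scaling, quantile normalization and cyclic loess.

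**Figure D1:**
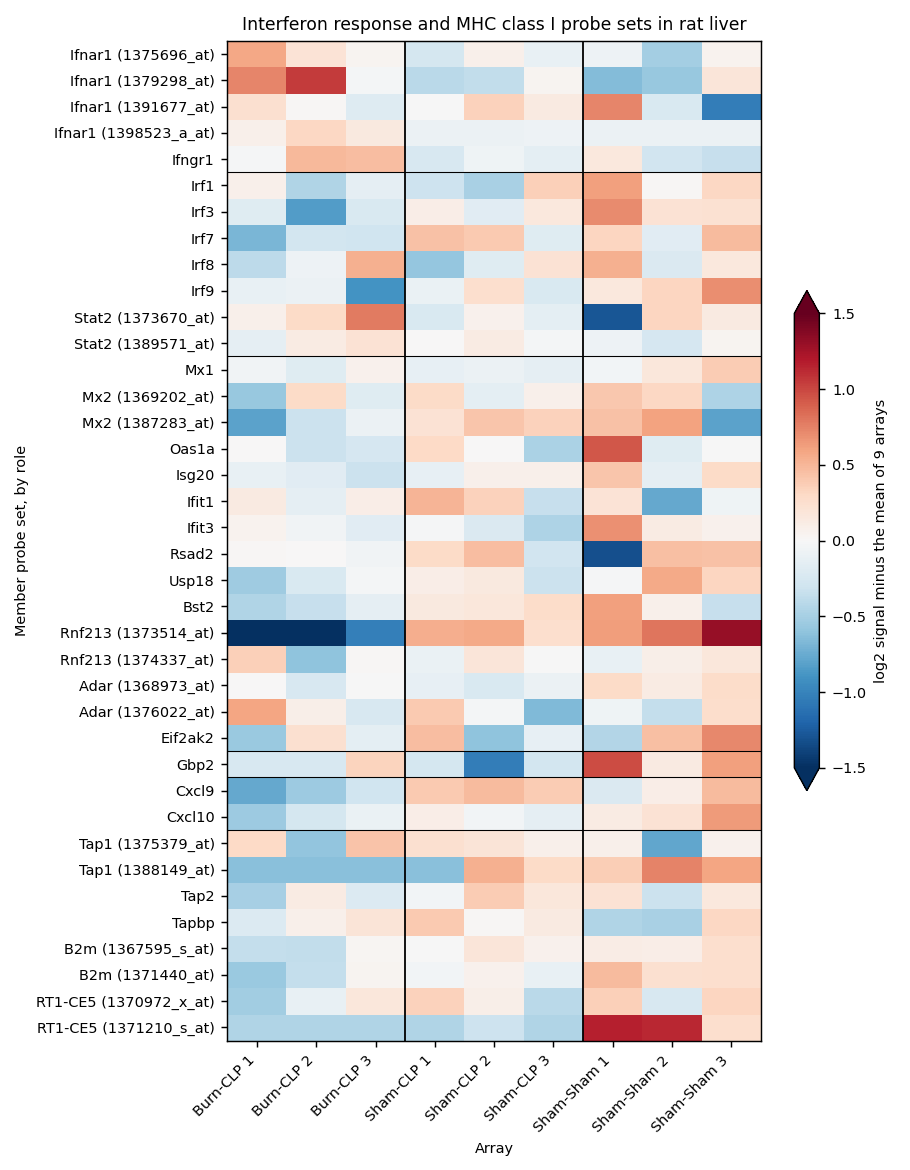
Heat map of the tested probe sets by role (rows) on the 9 arrays (columns, Burn-CLP, Sham-CLP and Sham-Sham from left to right), coloured by the log2 signal relative to the probe set's mean over all 9 arrays. Rnf213 (1373514_at) is low on all 3 Burn-CLP arrays, and the receptor rows at the top are mostly higher there.

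By role, the 5 probe sets of the listed receptor chains Ifnar1 and Ifngr1 were higher in Burn-CLP than in Sham-Sham livers, and none was called. One of them, 1398523_a_at of Ifnar1, met the filter only through Burn-CLP, with 72.3, 85.2 and 76.1 there, against 64.3, 64.3 and 64.8 in Sham-CLP livers and the floor on all Sham-Sham arrays, so it had to be higher. Ifngr2, the other chain of the interferon gamma receptor, is not on the list and was chosen after its values were seen. It had 491, 431 and 518 in Burn-CLP livers, 496.5, 458 and 693 in Sham-CLP livers and 639.6, 798 and 684 in Sham-Sham livers. Its Burn-CLP arrays were all below the Sham-Sham arrays, a change of -0.56 ± 0.20 (unadjusted p = 0.02, limma adjusted p = 0.18) that is opposite in sign to those of the listed receptors. Of the transcription factors, 5 of 7 were lower (median -0.49), and of the antiviral effectors and regulators 12 of 15 were lower (median -0.35). Both chemokines were lower (median -0.64), as were 6 of 8 class I presentation probe sets (median -0.34). Of these 6, Tap1 at 1388149_at and RT1-CE5 at 1371210_s_at were at the floor on all Burn-CLP arrays and so could only be lower. The difference between roles was not tested.

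Ifnar1, a chain of the receptor for type I interferons, had 233, 290.2 and 137 at probe set 1379298_at in Burn-CLP livers, 106, 109 and 144 in Sham-CLP livers and 89.0, 94.5 and 159 in Sham-Sham livers. Burn-CLP 1 and 2 were above all other arrays, while Burn-CLP 3 lay within the range of both other groups. The change was 0.93 ± 0.32 against Sham-Sham (unadjusted p = 0.0153, limma adjusted p = 0.164) and 0.83 ± 0.32 against Sham-CLP (adjusted p = 0.482). The other 3 Ifnar1 probe sets changed by 0.20 to 0.45 against Sham-Sham, with no adjusted p under 0.273.

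Ifngr1, the ligand-binding chain of the interferon gamma receptor, had 1021, 1443 and 1420.0 in Burn-CLP livers, 873, 989 and 933 in Sham-CLP livers and 1154, 848 and 811 in Sham-Sham livers. All Burn-CLP arrays exceeded all Sham-CLP arrays, and Sham-Sham 1 exceeded Burn-CLP 1. Against Sham-Sham the change was 0.47 ± 0.21, with an unadjusted p of 0.0486 and a limma adjusted p of 0.25.

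Among the transcription factors, Irf3, which carries the signal of nucleic acid sensors to interferon promoters, had 641, 405 and 622 in Burn-CLP livers, 775, 648 and 811 in Sham-CLP livers and 1189, 846 and 851 in Sham-Sham livers. The 3 groups did not overlap, and Burn-CLP was the lowest. The change was -0.80 ± 0.23 for Burn-CLP against Sham-Sham (unadjusted p = 0.00655) and did not pass (limma adjusted p = 0.125). For Burn-CLP against Sham-CLP it was -0.45 ± 0.23 (adjusted p = 0.607).

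Irf7, the factor that amplifies type I interferon production, had 288, 380.3 and 375 in Burn-CLP livers, 628, 608 and 406 in Sham-CLP livers and 576, 409 and 640 in Sham-Sham livers. Every Burn-CLP array was below every other array, and the Sham-CLP and Sham-Sham arrays overlapped. The change was -0.63 ± 0.24 against Sham-Sham (limma adjusted p = 0.207) and -0.64 ± 0.24 against Sham-CLP (adjusted p = 0.482).

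Irf9, the DNA-binding subunit of the complex that recognises the ISRE, had 215, 218 and 124 in Burn-CLP livers, 216, 276 and 198 in Sham-CLP livers and 258, 291 and 375 in Sham-Sham livers. Burn-CLP lay wholly below Sham-Sham, and Sham-CLP overlapped both. The change against Sham-Sham was -0.76 ± 0.26 (unadjusted p = 0.0166, limma adjusted p = 0.168).

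Stat2, the partner of Irf9 in that complex, did not share this direction. Its probe set 1389571_at had 826, 988 and 1051 in Burn-CLP livers, 911, 985 and 889 in Sham-CLP livers and 862, 761 and 934 in Sham-Sham livers. The groups overlapped (0.16 ± 0.17 against Sham-Sham), and the other Stat2 probe set gave 0.66 ± 0.38 (limma adjusted p = 0.364). Irf1 and Irf8, which act in interferon gamma responses and in myeloid cells, gave -0.49 ± 0.26 and -0.14 ± 0.30 against Sham-Sham, with overlapping groups.

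Rnf213, a large ubiquitin ligase with an ATPase domain that interferons induce, carried the largest change among the listed genes. At probe set 1373514_at the signal was 64.3, 64.3 and 91.5 in Burn-CLP livers, 270.4, 275 and 221 in Sham-CLP livers and 286, 323 and 459 in Sham-Sham livers. Burn-CLP 1 and 2 were at the floor, Burn-CLP 3 was just above it, and no array of another group came near them. The means were 73.4 ± 15.7 in Burn-CLP, 255 ± 29.9 in Sham-CLP and 356 ± 91.3 in Sham-Sham livers (SD, n = 3 arrays each). The signal fell in Burn-CLP relative to Sham-Sham by 4.82-fold (-2.27 ± 0.23, limma adjusted p = 0.00443), which understates the change because of the arrays at the floor. It was also the only member that differed among the 3 groups by the moderated F test (limma adjusted p = 0.00815), where 0.148% of all probe sets did. That call ended without Burn-CLP 1, without Burn-CLP 2 and with the floor at the 10th percentile.

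The second Rnf213 probe set, 1374337_at, had 584, 301 and 462 in Burn-CLP livers, 427, 516 and 456 in Sham-CLP livers and 424, 486 and 512 in Sham-Sham livers. The groups overlapped fully (-0.12 ± 0.24 against Sham-Sham, limma adjusted p = 0.801). The fall was thus seen at 1 of the 2 probe sets, and where each lies on the transcript is not used here.

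**Figure D2:**
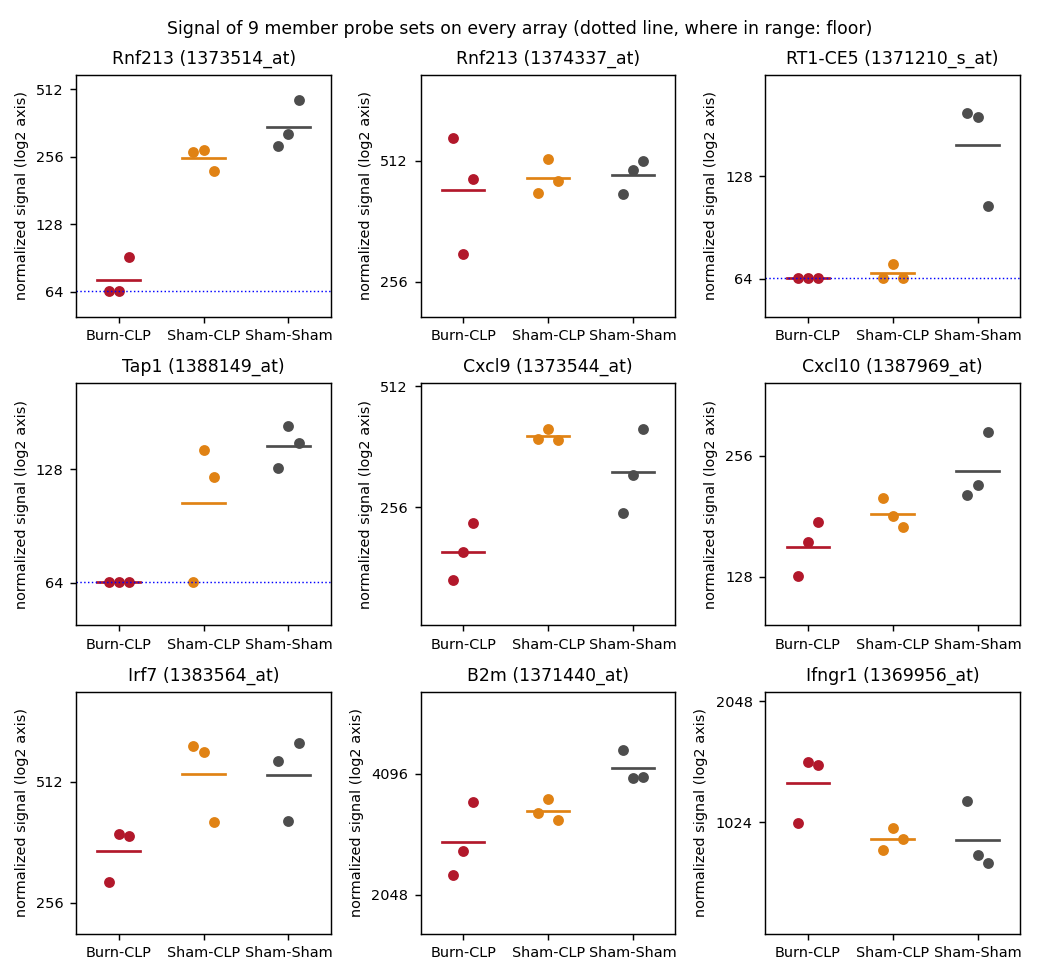
Normalized signal (log2 axis) of 9 member probe sets on every array, with 1 point per array, a bar at the mean of the log2 values and Burn-CLP, Sham-CLP and Sham-Sham from left to right in each panel. The dotted line is the floor of 64.3, where 2 Burn-CLP arrays of Rnf213 and all 3 of RT1-CE5 and Tap1 lie. Of the Sham-CLP arrays, 2 of RT1-CE5 and 1 of Tap1 lie there too.

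The other antiviral effectors and regulators moved less. Usp18, the protease that removes ISG15 and restrains the type I receptor, had 157, 194 and 222 in Burn-CLP livers, 243, 253 and 182 in Sham-CLP livers and 224, 338 and 285 in Sham-Sham livers. The Burn-CLP arrays were all below the Sham-Sham arrays, with the closest pair at 222 and 224. The change was -0.56 ± 0.22 (unadjusted p = 0.0336, limma adjusted p = 0.217).

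Bst2, or tetherin, which holds budding virus particles at the cell surface, had 1869, 2015 and 2323 in Burn-CLP livers, 2831, 2862 and 3091 in Sham-CLP livers and 3908, 2686 and 2012 in Sham-Sham livers. Burn-CLP lay wholly below Sham-CLP, while the Sham-Sham arrays overlapped both. The change was -0.42 ± 0.24 against Sham-Sham and -0.51 ± 0.24 against Sham-CLP (limma adjusted p = 0.345 and 0.571).

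Rsad2, or viperin, which makes an antiviral nucleotide, had 218, 217 and 207 in Burn-CLP livers, 264, 297 and 176 in Sham-CLP livers and 86.6, 295 and 292 in Sham-Sham livers. Its highest and lowest Sham-Sham arrays enclosed all Burn-CLP arrays. Mx1, a dynamin-like antiviral GTPase, had 164, 150.0 and 177 in Burn-CLP livers, 156, 159.9 and 155 in Sham-CLP livers and 165, 191 and 222 in Sham-Sham livers. The Sham-CLP arrays were all below the Sham-Sham arrays (-0.29 ± 0.17, limma adjusted p = 0.525), and Burn-CLP overlapped both. Oas1a, Isg20, Ifit1, Eif2ak2 and both Mx2 probe sets changed by -0.48 to 0.24 against Sham-Sham, with no unadjusted p under 0.05 in any comparison.

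The chemokines Cxcl9 and Cxcl10 recruit T cells and natural killer cells through the receptor Cxcr3. Cxcl10 had 129, 156 and 175 in Burn-CLP livers, 201, 182 and 170.3 in Sham-CLP livers and 204, 217 and 293 in Sham-Sham livers. Both CLP groups lay wholly below Sham-Sham, with Burn-CLP at -0.63 ± 0.20 (limma adjusted p = 0.147) and Sham-CLP at -0.35 ± 0.20 (adjusted p = 0.507).

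Cxcl9 showed another order. It had 169, 198 and 234 in Burn-CLP livers, 378, 402 and 376 in Sham-CLP livers and 248, 308 and 401 in Sham-Sham livers. Every Burn-CLP array was below every array of the other groups, and Sham-CLP was tight and at the upper end of Sham-Sham. The means were 200.3 ± 32.6 in Burn-CLP, 385 ± 14.2 in Sham-CLP and 319 ± 76.9 in Sham-Sham livers (SD, n = 3 arrays each). The change was -0.66 ± 0.21 against Sham-Sham (limma adjusted p = 0.151) and -0.96 ± 0.21 against Sham-CLP (unadjusted p = 0.00121, adjusted p = 0.278), and neither passed.

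In class I presentation, RT1-CE5, a heavy chain gene of the rat MHC, was the second member called. At probe set 1371210_s_at all 3 Burn-CLP arrays were at the floor of 64.3, the Sham-CLP arrays had 64.3, 70.4 and 64.3, and the Sham-Sham arrays had 196, 192 and 104. Both CLP groups were at or near the floor, and all Sham-Sham arrays were above it. The probe set met the filter through the Sham-Sham arrays and 1 Sham-CLP array, so a lower signal in both CLP groups than in Sham-Sham was built into its entry. The signal was at least 2.45-fold lower in Burn-CLP than in Sham-Sham livers (-1.29 ± 0.24, limma adjusted p = 0.048). This call sits at the threshold and was kept in 4 of 18 alternatives, with adjusted p from 0.00583 to 0.164. Leaving out any 1 array other than Sham-Sham 3 ended it.

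The other tested RT1-CE5 probe set, 1370972_x_at, had 212, 283 and 343 in Burn-CLP livers, 388, 325 and 231 in Sham-CLP livers and 389.5, 258 and 381 in Sham-Sham livers, with overlapping groups (-0.30 ± 0.27 against Sham-Sham). RT1 genes are near-identical copies of one another, so signals of these probe sets may come from several of them.

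B2m, the light chain of class I molecules, was lower in Burn-CLP at both of its probe sets without passing. At 1371440_at it had 2292, 2638 and 3492 in Burn-CLP livers, 3276, 3551 and 3138 in Sham-CLP livers and 4686, 3993 and 4019 in Sham-Sham livers. Both CLP groups lay below all Sham-Sham arrays, and Burn-CLP and Sham-CLP overlapped. The change was -0.61 ± 0.19 for Burn-CLP against Sham-Sham (unadjusted p = 0.0101, limma adjusted p = 0.145). At 1367595_s_at it had 13322, 13248 and 17438 in Burn-CLP livers, 17066, 19319 and 17809.7 in Sham-CLP livers and 18388, 18293 and 20409.8 in Sham-Sham livers. The Burn-CLP arrays were all below the Sham-Sham arrays and overlapped Sham-CLP. The means were 14669 ± 2398 in Burn-CLP, 18065 ± 1148 in Sham-CLP and 19030.2 ± 1196 in Sham-Sham livers (SD, n = 3 arrays each), a change of -0.39 ± 0.17 (adjusted p = 0.25).

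Tap1, a subunit of the peptide transporter, gave opposite signs at its 2 probe sets. At 1388149_at all 3 Burn-CLP arrays were at the floor, the Sham-CLP arrays had 64.3, 144 and 122, and the Sham-Sham arrays had 129, 166 and 150.3. This probe set met the filter only through Sham-Sham and Sham-CLP arrays, so a lower signal in Burn-CLP was built into its entry. Burn-CLP lay wholly below Sham-Sham, at least 2.3-fold lower, without passing (-1.20 ± 0.28, limma adjusted p = 0.0747). It passed in 1 of 19 alternatives, without Sham-CLP 1 (adjusted p = 0.0428). At 1375379_at the arrays had 136, 73.4 and 148 in Burn-CLP livers, 131, 126 and 117 in Sham-CLP livers and 117, 64.3 and 116 in Sham-Sham livers (0.26 ± 0.31). Tap2, the other subunit, and Tapbp, or tapasin, which bridges the transporter and class I, gave -0.21 ± 0.23 and 0.23 ± 0.24.

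**Figure D3:**
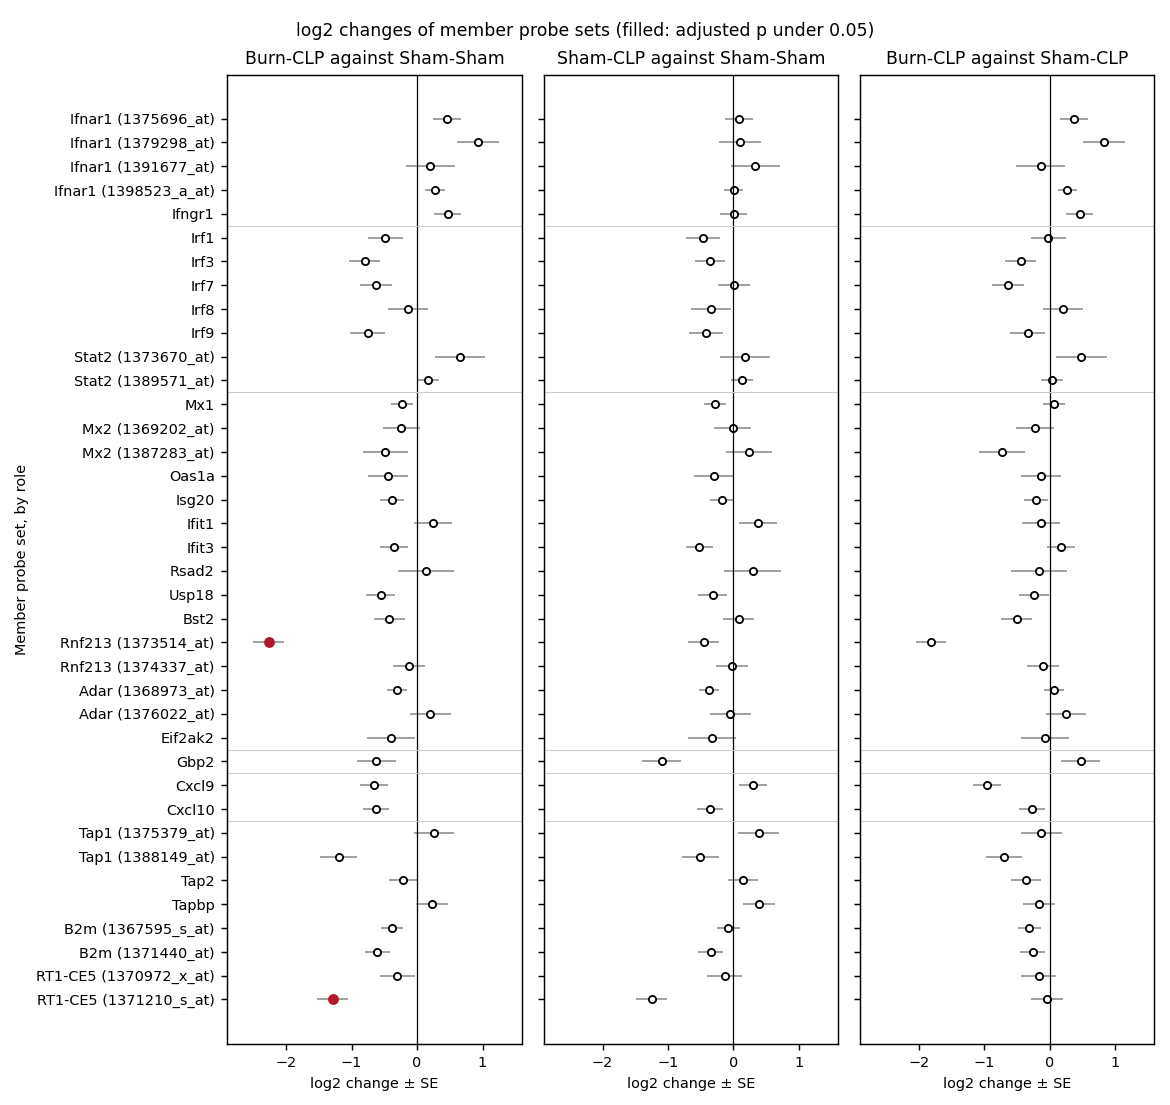
Log2 change ± SE of each tested member probe set in the 3 comparisons, 1 panel per comparison, with filled points at an adjusted p under 0.05. Only Rnf213 (1373514_at) and RT1-CE5 (1371210_s_at) are filled, and only for Burn-CLP against Sham-Sham.

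The second comparison, of Sham-CLP with Sham-Sham livers, asks what CLP without a burn does. No member was called by limma (0 of 38), where 0.0591% of all probe sets were called and 0.0148% of all were called as lower. The median change was -0.06, with 22 of 38 lower and a range of -1.25 to 0.39, against a median of 0.00 over all probe sets. The member median was -0.18 without Sham-Sham 2, with 26 lower, and -0.025 without Sham-CLP 3, with 21 lower. Without Sham-Sham 3, 347 probe sets were called over the whole array, against 8 with all arrays. At an unadjusted p under 0.05, 4 were lower and 0 higher, where 5.9% and 5.83% of all probe sets were. The Sham-CLP arrays all lay below the Sham-Sham arrays at 9 of the 38 and all above them at 0, against 8.65% and 8.1% of all probe sets. Under the deposited scaling the median over all probe sets was -0.08 and that of the members -0.20, and 30 of the 38 signs were the same under all 3 scalings.

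The 4 members with an unadjusted p under 0.05 were RT1-CE5, Gbp2, Ifit3 and Adar. RT1-CE5 at 1371210_s_at changed by -1.25 ± 0.24 (unadjusted p = 0.000457, limma adjusted p = 0.158), with the arrays given above. This probe set met the filter through the Sham-Sham arrays and 1 Sham-CLP array, so a lower signal in Sham-CLP was built into its entry. It is also among the 9 without overlap. It was called in 2 of 18 alternatives, 1 of them without Sham-Sham 3.

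Gbp2, an interferon-induced GTPase that attacks vacuoles of intracellular microbes, had 112, 111 and 166 in Burn-CLP livers, 109.7, 64.3 and 109 in Sham-CLP livers and 259, 144 and 201 in Sham-Sham livers. Sham-CLP was below every other array, with Sham-CLP 2 at the floor. The change was -1.10 ± 0.29 for Sham-CLP against Sham-Sham (unadjusted p = 0.00428, limma adjusted p = 0.295). The Burn-CLP mean lay between those of the other groups, at -0.62 ± 0.29 against Sham-Sham and 0.47 ± 0.29 against Sham-CLP.

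Ifit3, which binds other IFIT proteins that capture viral RNA, had 224, 208 and 192 in Burn-CLP livers, 214, 187 and 157 in Sham-CLP livers and 347, 235 and 227 in Sham-Sham livers. Both CLP groups were below Sham-Sham, and Sham-CLP changed by -0.52 ± 0.21 (limma adjusted p = 0.398). Adar, which edits adenosines in double-stranded RNA, had 519.6, 438 and 518 at 1368973_at in Burn-CLP livers, 477, 442 and 488 in Sham-CLP livers and 633, 567 and 627 in Sham-Sham livers. Again both CLP groups were lower without overlap, with Sham-CLP at -0.38 ± 0.16 (adjusted p = 0.405). The other Adar probe set gave -0.04 ± 0.31 in the same comparison.

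The third comparison, of Burn-CLP with Sham-CLP livers, asks what the burn adds to CLP. No member was called by limma (0 of 38), where 0.0148% of all probe sets were called. The median was -0.14, against 0.02 over all probe sets, and 26 of 38 were lower, against 47.6% of all probe sets. At an unadjusted p under 0.05, 4 were lower and 1 higher, where 5.19% and 3.9% of all probe sets were. The groups did not overlap at 6 members that were lower and 4 that were higher, against 9.22% and 9.61% of all probe sets. Under the deposited scaling the median over all probe sets moved to 0.11 and that of the members to -0.01, and 34 of the 38 signs were the same under all 3 scalings.

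Rnf213 came closest to a call, at -1.81 ± 0.23 (unadjusted p = 1.81e-05, limma adjusted p = 0.0613). It was called in 4 of 20 alternatives, among them without Sham-Sham 3 and without Burn-CLP 3, with adjusted p from 0.00589 to 0.39. Cxcl9, Irf7 and Tap1 at 1388149_at (-0.70 ± 0.28) were the other 3 lower members with an unadjusted p under 0.05, and Ifnar1 at 1379298_at was the higher one. The Tap1 probe set met the filter without any Burn-CLP array, so its Burn-CLP signal could not be the higher one. After quantile normalization the 8 class I presentation probe sets had negative changes in Burn-CLP against Sham-CLP livers, with a median of -0.22 and a range of -0.70 to -0.04, and none was called. Under the deposited scaling Tap1 at 1375379_at was at 0.09 and RT1-CE5 at 1371210_s_at at 0. The value of -0.04 belongs to that RT1-CE5 probe set and rests on 1 Sham-CLP array above the floor. Because the comparisons share arrays, their values for a gene are not independent of each other.

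**Figure D4:**
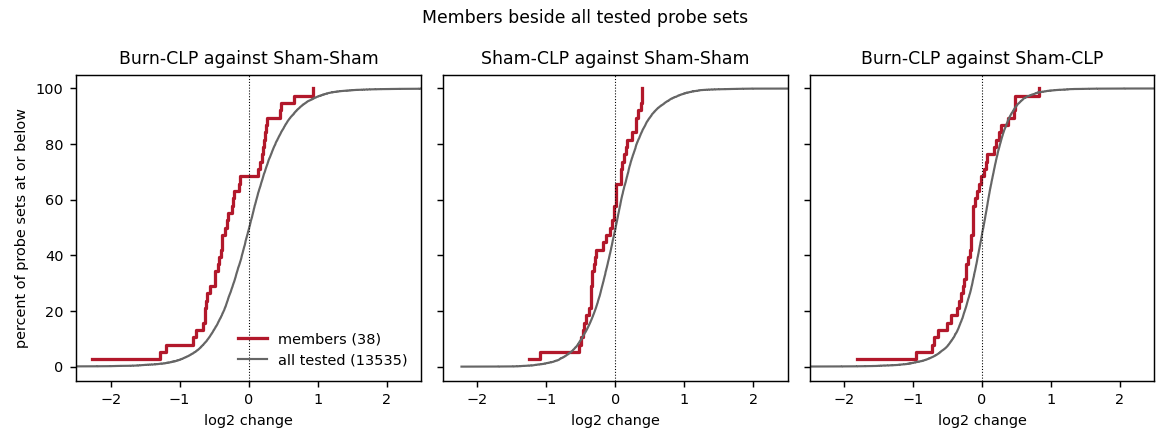
Cumulative share of probe sets by log2 change, for the 38 members and for all 13535 probe sets tested, in the 3 comparisons. The member curve lies to the left of the curve of all probe sets for Burn-CLP against Sham-Sham (medians -0.33 and 0.01) and less so for the other comparisons.

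Members with an ISRE core in the promoter window were set beside those without one. Of the 15 tested probe sets of 13 genes with the core, 12 were lower in Burn-CLP than in Sham-Sham livers (median -0.40), against 10 of 17 probe sets of 11 genes without it (median -0.14). For Burn-CLP against Sham-CLP, 13 of the 15 and 9 of the 17 were lower, and for Sham-CLP against Sham-Sham, 9 of the 15 and 9 of the 17. Against Sham-Sham, the 7 higher probe sets without the core were all of Ifnar1, Ifngr1 and Stat2, and all other probe sets without it were lower. By the filter Ifnar1 at 1398523_a_at had to be higher, and Tap1 at 1388149_at and RT1-CE5 at 1371210_s_at lower. This is a description, and the difference between genes with and without the core was not tested.

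Genes of the same pathways that are not on the list were counted in the same way. Of 29 tested probe sets of 28 other interferon pathway genes, 16 were lower and 13 higher in Burn-CLP than in Sham-Sham livers (median -0.28), with 1 called lower and 0 higher. At an unadjusted p under 0.05, 5 of these were lower and 3 higher, where 9.85% and 10% of all probe sets were. The called gene was Dtx3l, a ubiquitin ligase that works with Parp9 and is induced by interferon. Dtx3l had 211, 238 and 302 in Burn-CLP livers, 510.4, 483 and 469 in Sham-CLP livers and 699.7, 445 and 584 in Sham-Sham livers. All Burn-CLP arrays were below all others, and the signal fell 2.29-fold in Burn-CLP relative to Sham-Sham (-1.19 ± 0.21, limma adjusted p = 0.0421), a call kept in 9 of 20 alternatives and lost on leaving out any 1 array other than Sham-Sham 3 or Burn-CLP 3. Of 22 probe sets of 14 other class I presentation genes, 16 were lower (median -0.23) and 0 were called, with 6 lower at an unadjusted p under 0.05. For Burn-CLP against Sham-CLP, the other interferon pathway genes had 17 probe sets higher and 12 lower (median 0.12), with 0 called by limma and 1 higher and 2 lower at an unadjusted p under 0.05. In the same comparison 17 of the 22 other class I probe sets were lower (median -0.20), with 0 called by limma and 5 lower at an unadjusted p under 0.05. Between Sham-CLP and Sham-Sham 0 probe sets of either list were called by limma, and 1 and 0 had an unadjusted p under 0.05.

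In whole liver, fewer cells of a type and less RNA per cell cannot be told apart. Summed macrophage markers (7 of 10 on the array, led by Cd14 and Clec4f) were 9793 to 13883 in Burn-CLP, 8651 to 10973 in Sham-CLP and 8560 to 9514 in Sham-Sham livers. All 7 were higher in Burn-CLP than in Sham-Sham livers, 1 of them at an unadjusted limma p under 0.05. Neutrophil markers (4 of 7, led by S100a9 and S100a8) were 510.2 to 1286 in Burn-CLP, 397 to 513 in Sham-CLP and 291 to 378 in Sham-Sham livers. The 3 tested were higher in Burn-CLP than in Sham-Sham livers, and 1 was called (limma adjusted p = 0.0239). Lymphocyte and natural killer cell markers (14 of 17, led by Cd4 and Lck) were 2132 to 2467 in Burn-CLP, 2047 to 2081 in Sham-CLP and 2197 to 2766 in Sham-Sham livers. Of the 13 tested, 8 were lower and 5 higher in Sham-CLP than in Sham-Sham livers. At an unadjusted limma p under 0.05, 4 were lower and 0 higher there, where 5.9% and 5.83% of all probe sets were. Endothelial markers (4 of 7, led by Kdr and Lyve1) were 1570.5 to 2608 in Burn-CLP, 1561 to 2146 in Sham-CLP and 2146 to 2456 in Sham-Sham livers. These sums follow the brightest markers: 3 of the 4 were higher in Burn-CLP than in Sham-Sham livers and 1 was lower (median 0.56). Stellate cell and fibroblast markers (6 of 6, led by Col3a1 and Sparc) were 5404 to 7713 in Burn-CLP, 5418 to 8036 in Sham-CLP and 7969 to 8876 in Sham-Sham livers. Of their 9 probe sets, 6 were lower and 3 higher in Burn-CLP than in Sham-Sham livers. Of these, 1 was called, at a change of 1.48 (limma adjusted p = 0.0239). Apart from the neutrophil and stellate lists, no marker was called in that comparison. Dendritic cell markers (2 of 8, with Bst2 left out as a member) overlapped in all groups, at 519 to 560.2 in Burn-CLP, 482 to 640.3 in Sham-CLP and 430.4 to 775 in Sham-Sham livers. Blood markers (3 of 4, led by Hbb and Hba-a3) were 9806 to 11819.6 in Burn-CLP, 11334 to 12517 in Sham-CLP and 12602 to 15826 in Sham-Sham livers, so both CLP groups lay below Sham-Sham, with 2 of the 3 lower in Burn-CLP at an unadjusted p under 0.05 and 0 called by limma. Bile duct markers (3 of 4, with Epcam and Krt19) were 744.8 to 1078 in Burn-CLP, 739 to 808 in Sham-CLP and 791 to 1029 in Sham-Sham livers. No marker on the array was at the floor on all 9 arrays. The part of these differences in the results above was not tested.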

How the data were processed

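The deposited values are linear intensity values, 1 per probe set and array, on 9 arrays. For the steps before deposit, the software was not given in the sources used here. Deposited intensities had been scaled, since the trimmed mean lay near 500.1 on each array.

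With limma 3.58.1 in R 4.3.3, all 15923 probe sets, 57 controls included, were quantile normalized and floored at the 20th percentile. The controls were then left out, and probe sets that met the filter were tested on log2 values with lmFit and eBayes, 3 arrays a group. Adjusted p-values are Benjamini-Hochberg over 13535 probe sets. The code was tested on simulated data. A fold against a group wholly at the floor is a lower bound. With 3 arrays against 3, exact permutation cannot give a p under 0.1, so none was run. No 2 arrays held identical values, and the number of arrays limits the precision.

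Symbols came from the platform annotation, updated to GRCr8 RefSeq symbols: 12783 probe sets had 1 symbol, 312 several and 2771 none. Probe sets with several symbols were left out of the members.

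Shown array by array are members with an unadjusted p under 0.05 in any comparison or in the F test and the brightest of each role. Rsad2, Mx1, Mx2, Ifngr2, Ifnar1 at 1398523_a_at and the second probe sets of Rnf213, RT1-CE5 and Tap1 were added after their values were seen. Members, lists and tests were chosen with earlier results of these data known. Alternatives changed the scaling, floor, filter, variance model, weights, block and arrays.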

Additional observations from a re-analysis of the deposited data

Results flagged for a closer look

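At 3 of the 38 members (7.89%), the Burn-CLP and Sham-CLP arrays lay wholly on opposite sides of the mean of the log2 signals of Sham-Sham. Counted in either direction, 2.95% of all 13535 probe sets did so. At the 3 members every Burn-CLP array was below that mean and every Sham-CLP array above it. These members were Cxcl9, with a difference of -0.96 between Burn-CLP and Sham-CLP (log2, limma adjusted p = 0.278), Mx2 at 1387283_at, with -0.73 (adjusted p = 0.575), and Bst2, with -0.51 (adjusted p = 0.571). None of these differences passed. Mx2, an antiviral GTPase, had 64.3, 90.1 and 105 in Burn-CLP livers, 129.9, 149 and 142 in Sham-CLP livers and 152, 171 and 64.3 in Sham-Sham livers, with 1 Burn-CLP and 1 Sham-Sham array at the floor.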

How the results depend on the processing

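Under the 20 alternatives tried, of which 18 to 20 could be used for each, no change of the 23 gene results followed reversed its sign. These were chosen by an unadjusted p under 0.05 in the fit to all arrays, or for Dtx3l by its call, so stable signs were likely. Over all 38 members, 8 signs changed between scalings for Sham-CLP against Sham-Sham, 4 for Burn-CLP against Sham-CLP and 0 for Burn-CLP against Sham-Sham. Rnf213 remained called for Burn-CLP against Sham-Sham in all 20, from -2.74 to -1.64. RT1-CE5 and Dtx3l did not remain called in most. Counts are of all probe sets unless members are named.

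For Burn-CLP against Sham-Sham, calls were 53 with the floor at the 10th percentile, 212 at the 30th, 317 with a mean-variance trend and robust eBayes, 13 with only the 2 groups, 262 with array weights and 59 with the replicate block. The count of called members was 1 under the deposited scaling, both other floors, 50 added without a floor, no filter, at least 6 of 9 arrays above the floor, 2 groups only and the replicate block. With the brightest probe set per gene 0 members were called. Array weights gave a member median of -0.24. Without 1 array, calls were 19 (without Burn-CLP 1) to 645 (without Sham-Sham 3), members 1 to 2 and medians -0.37 to -0.24.

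For Sham-CLP against Sham-Sham, calls were 4 under the deposited scaling, 69 with array weights (1 member) and 4 with the block, and the deposited scaling gave a median of -0.20. Without 1 array, calls were 4 to 347 (without Sham-Sham 3), members 0 to 1 and medians -0.18 to -0.025.

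For Burn-CLP against Sham-CLP, calls were 1 under the deposited scaling, 4 and 0 at the lower and higher floor, 0 without a floor, 4 without a filter, 0 at 6 arrays, 10 with trend (1 member), 0 with 2 groups, 47 with array weights (2 members) and 0 with the block. The deposited scaling gave a median of -0.0097. Without 1 array, calls were 0 to 36, members 0 to 1 and medians -0.18 to -0.09.

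By the F test, calls were 48 at the higher floor, 37 without a floor, 40 without a filter, 127 with trend and 151 with array weights (3 members), and 0 members at the lower floor. Without 1 array, calls were 9 to 303 and members 0 to 2.

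Same-numbered arrays did not pair: 0 of 9 correlations of their deviations exceeded 0.1 (-0.0261 to 0.0806), and the replicate block is given only here. The causes were not tested. Signal near the floor limits Rnf213, Tap1 and RT1-CE5.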

Other observations

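Class I heavy chain genes also stood on probe sets that several gene symbols share, which were left out above. The probe set shared by RT1-A3 and RT1-A2 had 4246, 2662 and 3358 in Burn-CLP livers, 2369, 2411 and 2130 in Sham-CLP livers and 3254, 2386 and 5282 in Sham-Sham livers. All Burn-CLP arrays were above all Sham-CLP arrays, a change of 0.55 ± 0.29 that did not pass (limma adjusted p = 0.610), and Sham-Sham spanned most of the range. The probe set shared by RT1-A, RT1-CE16 and RT1-A1 gave -0.14 ± 0.28 for Burn-CLP against Sham-CLP, and the one shared by Igtpl1, Irgm2 and Igtp gave -0.77 ± 0.50. Both had overlapping groups. The one shared by RT1-A, RT1-CE11, RT1-CE13, RT1-CE7 and RT1-CE5 gave 0.12 ± 0.36 for Burn-CLP against Sham-CLP and -0.43 ± 0.36 for Burn-CLP against Sham-Sham (limma adjusted p = 0.956 and 0.524), also with overlapping groups.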
